A study of Glycine max with 6 samples.

Results

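Evening-phased genes of the plant circadian clock were followed in soybean leaves, as 7 gene identifiers out of 36827 in the deposited tables. They were chosen by their protein descriptions: 4 are described as EARLY FLOWERING 4-like or ELF4-LIKE, and 3 as APRR1-like or timing of CAB expression 1, the gene called TOC1. The 6 RNA-seq libraries came from trifoliolate leaves at germination day 30. Of these, 3 are from DN50 soybean, given as wild type, and 3 are labelled GmRAV1-ox, with GmRAV1 as the genotype. No promoter, transgenic line or hour of leaf collection is named in the labels, nor whether each library came from a different plant. The p-values therefore cover the spread among the sequenced samples alone, which may be technical.

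The clock of plants runs through mutual repression between genes that peak at different times of day. In Arabidopsis the MYB factors LHY and CCA1 accumulate around dawn and repress evening genes. TOC1, a pseudo-response regulator, accumulates in the evening and represses LHY and CCA1 in turn. ELF4 is a small protein that joins ELF3 and the DNA-binding factor LUX in the evening complex, a repressor that is active at dusk and at night. Through these genes the clock sets growth and photoperiodic flowering. Roles below are those known in Arabidopsis, since the soybean identifiers carry only a description by similarity.

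The words of the rule find 8 identifiers, and the one outside the set, Glyma14g06480.1, has 3 counts in all libraries together (DN50 2, GmRAV1-ox 1). All 7 genes of the set passed the filter on low counts. In the deposited gene ontology terms, 3 of the 7 (Glyma11g35270.1, Glyma14g37280.1 and Glyma18g03130.1) carry positive regulation of circadian rhythm, a term given to 13 genes in all. A reference table gave the symbol TOC1, with the synonym TOC1b, to the protein that Glyma06g21120.1 matches. The listed lengths, read as coding lengths, run from 279 bases for Glyma18g03130.1 to 507 for Glyma14g37280.1 among the ELF4-like genes. Among the TOC1 and APRR1-like genes they run from 1368 for Glyma05g00880.1 to 1728 for Glyma04g33110.1.

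Library depth ran from 7208496 to 7684540 estimated counts. The RAV family, which names the GmRAV1-ox libraries, has 4 described genes in the tables, and the labels do not say which one the line carries. The 3 that passed the filter on low counts had log2 fold changes from -0.26 to -0.04, and 0 were called (edgeR adjusted p from 0.673 to 0.961, 0 at an unadjusted p under 0.05, 0 by DESeq2 and 0 by limma). The remaining RAV gene, Glyma20g32730.1, had counts of 1, 4 and 3 in DN50 replicates 1 to 3, and 12, 23 and 2 in GmRAV1-ox. It was high in GmRAV1-ox replicates 1 and 2 and at the DN50 level in replicate 3, with a log2 fold change of 1.96 in the edgeR fit with no filter (adjusted p = 0.254) and 2.44 without GmRAV1-ox replicate 3 (adjusted p = 0.0273). RAV transcripts thus did not separate the groups in all libraries, and the groups are named by their labels throughout. GmRAV1-ox replicate 3 lay at -16.5 on the first principal component of all genes, among the DN50 libraries (-81.0 to -10.3) and away from GmRAV1-ox replicates 1 and 2 (71.6 and 100.1). The 32 leaf marker genes (light-harvesting proteins and the small subunit of Rubisco) were above 0 in every library, with summed FPKM of 106324 to 145807 in DN50 and 106131 to 146604 in GmRAV1-ox. The 4 seed markers stayed between 0.31 and 3.41. Of 9 genes matched by the root and nodule words, 6 to 8 were above 0 in a library. Their summed FPKM was 1389 to 2112 in DN50 and 1396 to 2027 in GmRAV1-ox, most of it coming from a nodulin-26 gene and leghemoglobin reductases.

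In the libraries labelled GmRAV1-ox, 2 of the 7 genes rose, both EARLY FLOWERING 4-like, and 0 fell. Glyma18g03130.1 rose 6.86-fold and Glyma11g35270.1 rose 2.44-fold. Of the 3 TOC1 and APRR1-like genes, Glyma06g21120.1 was estimated 2.12-fold higher but missed the threshold. The remaining 4 had estimated folds between 0.689 and 1.27. Calls used an edgeR quasi-likelihood F test over 26272 genes, with a Benjamini-Hochberg adjusted p under 0.05. Among all tested genes that rule called 0.122% higher and 0.579% lower. The median log2 fold change was 0.34 over the 7 genes and 0.01 over all tested genes. Both calls were lost when replicate 1 or 3 of DN50, or replicate 1 or 2 of GmRAV1-ox, was left out, and each of these edgeR fits called 0 genes in the whole table. At an unadjusted p under 0.05 those fits held 1446 to 1865 higher and 1759 to 2023 lower genes. Without GmRAV1-ox replicate 3, 3 of the 7 were called, against 8.62% of all genes called higher, and without DN50 replicate 2 it was 2, against 0.166%. DESeq2 called 3 of the 7 (2.07% of all genes called higher), as did edgeR with no scaling factors (0.32%). The count was 2 with edgeR and no filter (0.168%), at least 10 counts in 3 libraries (0.121%) or no robust estimation (0.0837%). By limma it was 2 on log2(FPKM + 1) (0.155%), 2 on log2(FPKM + 0.1) (0.0721%) and 1 with no filter (0.0163%). At an unadjusted p under 0.05, 3 of the 7 were higher and 0 lower, against 10.6% and 10.7% of all tested genes. Of the 13 genes with the circadian ontology term, the 2 called higher were these same members.

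**Figure D1:**
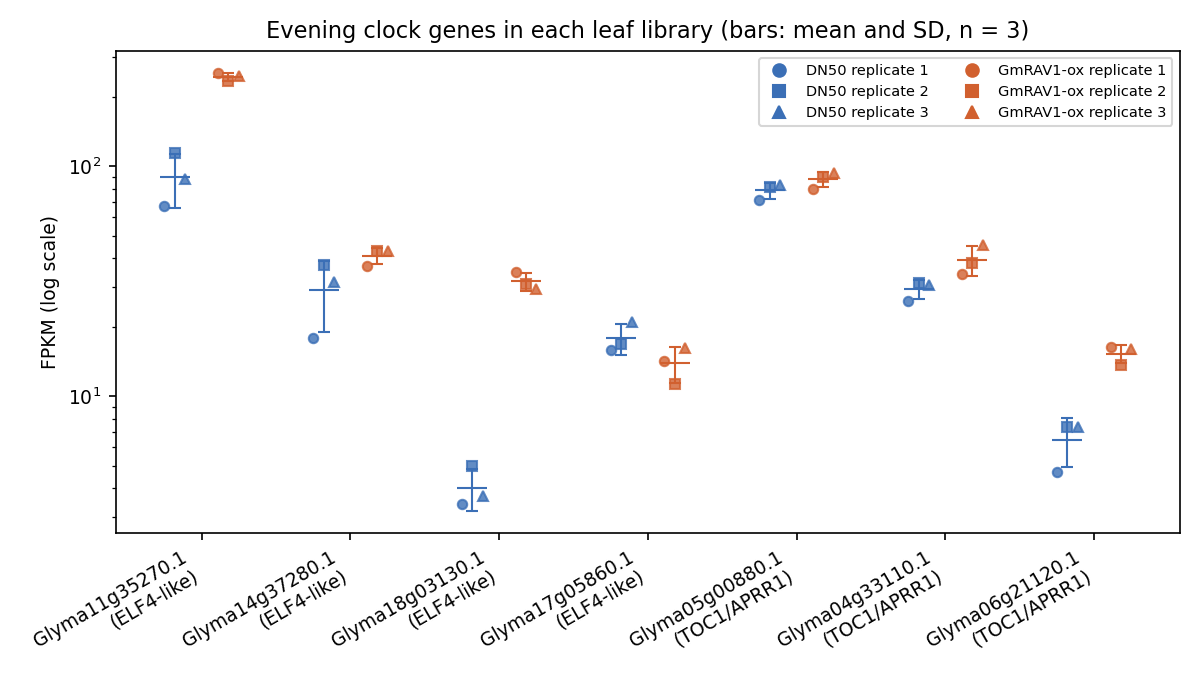
Transcript levels of the 7 evening clock genes in each library, in FPKM on a log axis, with the mean and SD of 3 libraries per group as bars. Glyma18g03130.1, Glyma11g35270.1 and Glyma06g21120.1 show the 3 GmRAV1-ox libraries above the 3 DN50 libraries by the widest margins.

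Glyma18g03130.1 had the lowest level of the set in DN50. Its deposited FPKM (fragments per kilobase of coding length, scaled to library size) was 3.39, 4.96 and 3.67 in DN50 replicates 1 to 3, and 34.8, 30.9 and 29.3 in GmRAV1-ox replicates 1 to 3. The groups are far apart, and GmRAV1-ox replicate 3 sits beside the other libraries of its label. Behind these levels were few counts in DN50, 5.73, 8.07 and 5.99, and 55.7, 48.7 and 46.6 in GmRAV1-ox. On the library-scaled CPM scale (with TMM factors) it went from 0.951 ± 0.175 (SD, n = 3) to 6.61 ± 0.680 (SD, n = 3), a log2 fold change of 2.78 (SE 0.31, 95% interval 2.07 to 3.49, edgeR adjusted p = 0.0320). By p-value it was number 11, and by estimated rise number 120, of 26272 tested genes.

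Glyma11g35270.1, the other EARLY FLOWERING 4-like gene that rose, had the highest mean level of the set in both groups. Its FPKM was 66.97, 114 and 87.7 in DN50 replicates 1 to 3, and 255, 235 and 248 in GmRAV1-ox. Every GmRAV1-ox library lay above every DN50 library, and the GmRAV1-ox values are close together. Mean CPM went from 32.9 ± 7.56 to 80.5 ± 9.82 (SD, n = 3 each), a log2 fold change of 1.29 (SE 0.21, 95% interval 0.81 to 1.77, edgeR adjusted p = 0.0460). It was number 135 by p-value. In the same table its mean FPKM exceeded that of 96.9% of tested genes, and that of Glyma18g03130.1 exceeded 68.8%.

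Counts of these genes are linked. The estimated counts of Glyma11g35270.1 and Glyma18g03130.1 are not whole numbers, but their sum is whole (within 0.01) in all 6 libraries, from 184 to 697 counts. No other gene in the table completes either of them in this way. The reads of the pair were thus divided between both genes by an estimate, and the split is less certain than the sum. The summed pair stood at 33.9 ± 7.71 CPM in DN50 and 87.1 ± 10.4 in GmRAV1-ox (SD, n = 3). It was 2.57-fold higher (95% interval 1.85 to 3.58, edgeR adjusted p = 0.0421, where 0.118% of all units were called higher). This fit was added after the data had been seen. Its call was lost without replicate 1 or 3 of DN50, or replicate 1 or 2 of GmRAV1-ox (edgeR adjusted p from 0.129 to 0.244).

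The split itself moved. Glyma18g03130.1 took 3.11%, 2.69% and 2.58% of the pair's counts in DN50 replicates 1 to 3, and 7.99%, 7.69% and 6.99% in GmRAV1-ox. Shares do not depend on library scaling, and every GmRAV1-ox share exceeded every DN50 share. The mean share was 2.80% ± 0.281 in DN50 and 7.56% ± 0.510 in GmRAV1-ox (SD, n = 3). Counting error alone is wide at this depth, with a 95% Wilson interval of 1.36% to 5.17% in DN50 replicate 2 and 5.35% to 9.26% in GmRAV1-ox replicate 3. As a log2 ratio of counts with 0.5 added, Glyma18g03130.1 to Glyma11g35270.1 went from -5.02 ± 0.155 to -3.60 ± 0.106 (SD, n = 3), a difference of 1.42. The 2-sided exact permutation p was 0.1, the smallest that 3 libraries against 3 allow, so this test cannot pass 0.05 here.

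**Figure D2:**
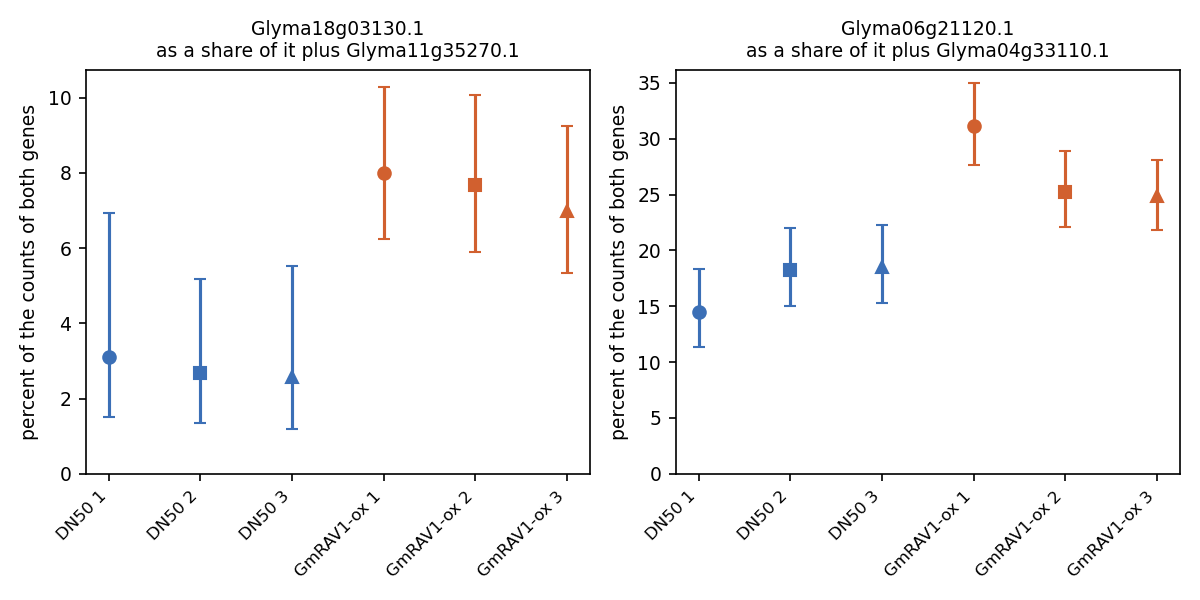
Share of each pair's summed counts taken by its less abundant gene, in percent, for each library, with 95% Wilson intervals that cover counting error only. Glyma18g03130.1 (left) lies between 2.58% and 3.11% in DN50 and between 6.99% and 7.99% in GmRAV1-ox, and Glyma06g21120.1 (right) between 14.5% and 18.5% and between 24.8% and 31.1%.

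The remaining ELF4-like genes, described as ELF4-LIKE 1-like and ELF4-LIKE 4-like, were not called. Glyma14g37280.1 had FPKM of 17.98, 37.4 and 31.4 in DN50 replicates 1 to 3, and 37.1, 42.8 and 42.9 in GmRAV1-ox. The groups overlap, and DN50 replicate 1 is the low value. Its log2 fold change was 0.34 (95% interval -0.21 to 0.90, edgeR adjusted p = 0.439), and with 1 library left out it ranged from 0.13 (without DN50 replicate 1) to 0.55 (without DN50 replicate 2). Its counts, 62 to 139 per library, are whole in every library.

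Glyma17g05860.1 was the only ELF4-like gene with a lower estimate in GmRAV1-ox. Its FPKM was 15.9, 16.8 and 21.04 in DN50, against 14.2, 11.3 and 16.2 in GmRAV1-ox, so that the groups overlap on this scale. On the TMM-scaled CPM scale they do not, at 5.12 to 5.94 in DN50 and 2.75 to 4.76 in GmRAV1-ox. The log2 fold change was -0.54 (95% interval -1.19 to 0.11, edgeR adjusted p = 0.309). Its counts complete those of Glyma13g16850.2, a gene of the same coding length (345 bases) described only as uncharacterized, to sums of 37 to 65. That sum had a log2 fold change of -0.64 (95% interval -1.17 to -0.12, edgeR adjusted p = 0.172).

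Together the 4 ELF4-like genes had summed FPKM of 104, 173 and 144 in DN50, against 341, 320 and 336 in GmRAV1-ox. Glyma11g35270.1 supplied 61.0% to 65.8% of that sum in DN50 and 73.5% to 74.7% in GmRAV1-ox. The share of Glyma18g03130.1 went from 2.55% to 3.25% in DN50 to between 8.72% and 10.2% in GmRAV1-ox. The summed counts were 2.04-fold higher (95% interval 1.47 to 2.84) but not called (edgeR adjusted p = 0.0734, where 0.114% of all units were called higher). They were called with no scaling factors (adjusted p = 0.0412 by edgeR) and without GmRAV1-ox replicate 3 (adjusted p = 0.0188 by edgeR). For single genes these settings called 0.32% and 8.62% of all tested genes higher. With any other library left out the sum was not called (edgeR adjusted p from 0.0742 to 0.309).

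Among the TOC1 and APRR1-like genes, Glyma06g21120.1, described as timing of CAB expression 1, was the one with separated groups on both scales. Its FPKM was 4.70, 7.37 and 7.38 in DN50 replicates 1 to 3, and 16.3, 13.7 and 16.0 in GmRAV1-ox. Even the lowest GmRAV1-ox library exceeded the highest DN50 library by more than the range within either group. Mean CPM was 10.8 ± 1.82 in DN50 and 23.0 ± 3.93 in GmRAV1-ox (SD, n = 3), a log2 fold change of 1.08 (SE 0.21, 95% interval 0.61 to 1.56). The unadjusted p was 6.92e-04 in the edgeR fit and the adjusted p 0.0640. It was called in 4 of 16 alternatives, among them DESeq2 (adjusted p = 0.00591), edgeR with no scaling factors (adjusted p = 0.0427) and edgeR without GmRAV1-ox replicate 3 (adjusted p = 0.0176). Over all 16 alternatives its adjusted p ranged from 0.00591 to 0.283.

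Both other genes of this family, described as APRR1-like, were more abundant and showed smaller differences. Glyma05g00880.1 had FPKM of 71.2, 81.7 and 82.9 in DN50, against 80.1, 90.2 and 93.2 in GmRAV1-ox, with overlapping groups. Its log2 fold change was -0.01 (95% interval -0.42 to 0.40, edgeR adjusted p = 0.975), and it turned to 0.17 with no scaling factors. Glyma04g33110.1 had FPKM of 26.1, 31.1 and 30.5 in DN50, against 34.0, 38.1 and 45.6 in GmRAV1-ox. These groups are apart in FPKM but overlap in TMM-scaled CPM, where GmRAV1-ox replicate 3 stood at 79.7 and the other 5 libraries between 50.5 and 55.02. Its log2 fold change of 0.26 (95% interval -0.19 to 0.71, edgeR adjusted p = 0.468) came to 0.03 without that library.

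Groups did not overlap for 4 of the 7 genes in CPM, 3 higher and 1 lower in GmRAV1-ox, against 12.9% and 13.1% of all tested genes. In FPKM, which carries no TMM factor, 4 were higher and 0 lower, against 18.8% and 7.88% of all tested genes. The scalings differ by a shift of all genes: the median log2 fold change over the whole table was 0.01 with TMM and 0.20 with no scaling factors.

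**Figure D3:**
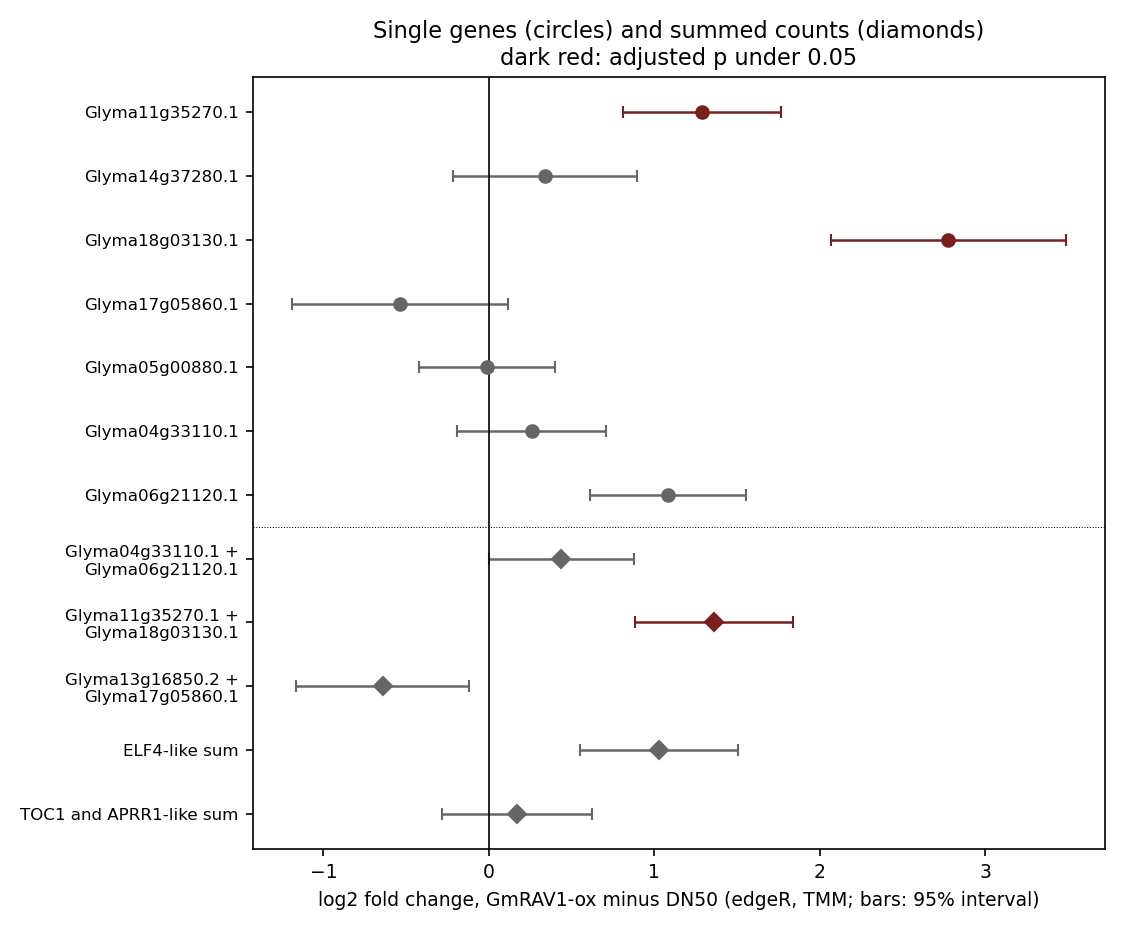
Log2 fold changes of GmRAV1-ox against DN50 with 95% intervals from edgeR, for the single genes (circles) and for summed counts of genes that share reads and of each family (diamonds). Glyma18g03130.1, Glyma11g35270.1 and the sum of that pair, at 2.78, 1.29 and 1.36, are past an adjusted p of 0.05.

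Glyma06g21120.1 and Glyma04g33110.1 also share reads, since their estimated counts add up to whole numbers (within 0.01) in all 6 libraries, from 393 to 734. Of these counts Glyma06g21120.1 took 14.5%, 18.3% and 18.5% in DN50 replicates 1 to 3, and 31.1%, 25.2% and 24.8% in GmRAV1-ox. The shares do not overlap between groups, with means of 17.1% ± 2.25 and 27.1% ± 3.52 (SD, n = 3). The log2 ratio of Glyma06g21120.1 to Glyma04g33110.1 was 0.84 higher in GmRAV1-ox (-2.28 ± 0.235 in DN50 and -1.43 ± 0.252 in GmRAV1-ox, n = 3). Its 2-sided exact permutation p was again 0.1, and the 2 ratios tested in this way have the same p after Benjamini-Hochberg adjustment. The summed pair had a log2 fold change of 0.44 (95% interval 0.00 to 0.88, edgeR adjusted p = 0.235).

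Over the 3 TOC1 and APRR1-like genes, summed FPKM was 102, 120.1 and 121 in DN50, against 130.4, 142 and 155 in GmRAV1-ox. Glyma05g00880.1 supplied 68.0% to 69.8% of it in DN50 and 60.2% to 63.5% in GmRAV1-ox, while Glyma06g21120.1 supplied 4.61% to 6.14% and 9.64% to 12.5%. In TMM-scaled CPM the family sum was 174 ± 5.62 in DN50 and 195 ± 33.4 in GmRAV1-ox (SD, n = 3), with overlapping groups and a log2 fold change of 0.17 (95% interval -0.28 to 0.62, edgeR adjusted p = 0.650).

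The order of the 7 genes by mean FPKM differed between the groups. In DN50 it ran from Glyma11g35270.1 (89.6 ± 23.6) through Glyma05g00880.1 (78.6 ± 6.44), Glyma04g33110.1 (29.2 ± 2.73), Glyma14g37280.1 (28.9 ± 9.94), Glyma17g05860.1 (17.9 ± 2.74) and Glyma06g21120.1 (6.48 ± 1.54) to Glyma18g03130.1 (4.01 ± 0.837; SD, n = 3 throughout). Of the neighbours in that order, Glyma05g00880.1 lay clear of Glyma04g33110.1, and Glyma17g05860.1 clear of Glyma06g21120.1, while the ranges of the other 4 neighbouring pairs overlapped. In GmRAV1-ox, Glyma11g35270.1 (246 ± 9.72) and Glyma05g00880.1 (87.9 ± 6.89) were again first. They were followed by Glyma14g37280.1 (40.9 ± 3.34), Glyma04g33110.1 (39.2 ± 5.86), Glyma18g03130.1 (31.7 ± 2.83), Glyma06g21120.1 (15.3 ± 1.43) and Glyma17g05860.1 (13.9 ± 2.48). Here the ranges overlapped between Glyma14g37280.1 and Glyma04g33110.1, between Glyma04g33110.1 and Glyma18g03130.1, and between the last pair. Glyma18g03130.1 thus stood above both Glyma17g05860.1 and Glyma06g21120.1 in GmRAV1-ox and below both in DN50.

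Other genes of the clock were taken from lists of description words. None of the partners in the evening complex was called: 0 of 5 tested ELF3-like and 0 of 6 tested LUX-like genes. Over all tested genes the rule called 0.122% higher and 0.579% lower, so 0 calls in a short list say little. Median log2 fold changes were 0.02 (ELF3-like) and 0.17 (LUX-like), and 0.20 and 0.34 with no scaling factors. The smallest p among the LUX-like genes was that of Glyma11g14490.1, with CPM of 37.1, 45.9 and 36.9 in DN50, against 55.9, 42.7 and 125 in GmRAV1-ox. GmRAV1-ox replicate 3 is the high value and the groups overlap in CPM (edgeR adjusted p = 0.237). In FPKM every GmRAV1-ox library lay above every DN50 library, as it did for 18.8% of all tested genes. Among the ELF3-like genes it was Glyma14g10530.1, with a log2 fold change of 0.34 (edgeR adjusted p = 0.245). The ZEITLUPE family are F-box proteins, of which ZEITLUPE itself targets TOC1 for degradation. This family had 0 of 6 called and a median of -0.16, which turned to 0.04 with no scaling factors. In that family Glyma08g05130.1, described as adagio 3-like, had the smallest p, with a log2 fold change of -0.55 (edgeR adjusted p = 0.154).

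With all 6 libraries, the calls among these lists were all downward and lay in the morning and daytime genes. Of 6 LHY and CCA1 genes, 2 fell and 0 rose, with a median log2 fold change of -1.63, where 0.579% of all tested genes were called lower. They were the LHY gene Glyma19g45030.1 (-2.49, edgeR adjusted p = 0.0363) and the CCA1 gene Glyma09g29800.2 (-2.59, edgeR adjusted p = 0.0383). Of 11 daytime pseudo-response regulators, 2 PRR95-like genes fell, Glyma19g44970.1 (-2.02) and Glyma07g05530.1 (-1.48), with a median of -1.02 for the list. Among 9 tested genes found by the words for PIF, bHLH factors described as PIF1-like, PIF3-like or PIF4-like, 0 were called. The median log2 fold change of this list was -0.87, with 7 estimates below 0 and 2 above. The PIF4-like gene Glyma08g41620.1 had the smallest p (-0.67, edgeR adjusted p = 0.0927). All 4 calls were lost on leaving out replicate 1 or 3 of DN50, or replicate 1 or 2 of GmRAV1-ox, since those fits called no gene. Without GmRAV1-ox replicate 3, edgeR called 5 of the 6 LHY and CCA1 genes and 7 of the 11 daytime regulators lower, and among the PIF genes 3 lower and 1 higher, where 9.66% of all tested genes were called lower and 8.62% higher. No description matched the words for GIGANTEA, REVEILLE or LNK.

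**Figure D4:**
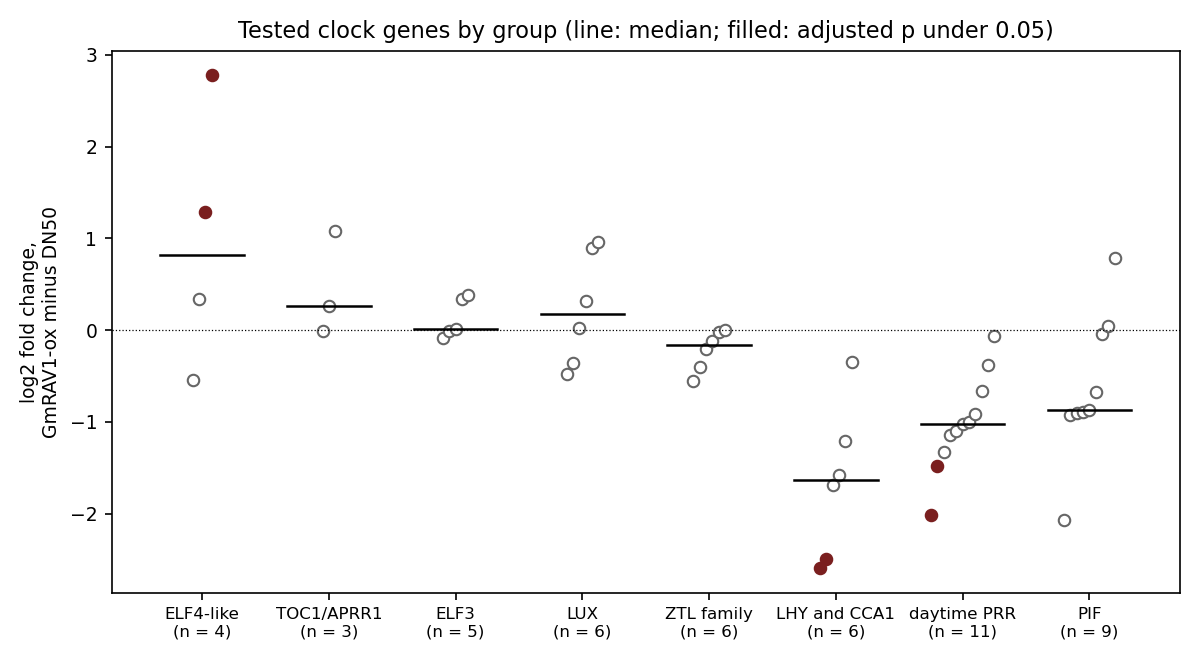
Log2 fold changes of all tested clock genes by group, GmRAV1-ox against DN50, with the group median as a line and genes past an adjusted p of 0.05 filled. The 2 filled genes above 0 are ELF4-like, and the 4 filled genes below 0 are LHY, CCA1 and PRR95-like genes.

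The ratio of evening to dawn transcripts within a library was higher in every GmRAV1-ox library, where the dawn sum itself was lower. Summed FPKM of the 6 LHY and CCA1 genes was 90.0, 59.4 and 85.7 in DN50 replicates 1 to 3, and 21.7, 21.25 and 36.6 in GmRAV1-ox. The summed counts of the TOC1 and APRR1-like genes differed little (log2 fold change 0.17, edgeR adjusted p = 0.650), so their ratio moved mostly with the dawn sum. The ratio of summed FPKM of the 4 ELF4-like genes to that of the 6 LHY and CCA1 genes was 1.16, 2.92 and 1.68 in DN50 replicates 1 to 3, and 15.7, 15.1 and 9.18 in GmRAV1-ox. For the TOC1 and APRR1-like genes the same ratio was 1.13, 2.02 and 1.41 in DN50, against 6.01, 6.69 and 4.23 in GmRAV1-ox. Neither ratio depends on library scaling, and neither was tested, since the lists had been chosen with their values known. GmRAV1-ox replicate 3 gave the lowest GmRAV1-ox value of both ratios, still above each DN50 library. The ratio of ELF4-like to TOC1 and APRR1-like FPKM was 1.02 to 1.44 in DN50 and 2.17 to 2.61 in GmRAV1-ox. As whole leaves were sampled, fewer cells of a type and less RNA per cell cannot be told apart. The labels name no hour of leaf collection. A difference in hour between the groups cannot be told apart from one of genotype, and was not tested.

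Profiles most like each gene were sought among 17163 described genes, as the smallest root mean square difference of centred log2 CPM over the 6 libraries. For Glyma11g35270.1, whose own range was 1.70, these were Glyma12g08440.1 (copper-transporting ATPase 2-like, difference 0.12), Glyma06g04210.1 (protein phosphatase 2C 12-like, 0.13) and Glyma14g36930.2 (CONSTANS-LIKE 9-like, 0.14). Only the last of these was called (log2 fold change 1.37, edgeR adjusted p = 0.0435). For Glyma18g03130.1, with a range of 2.81, they were Glyma18g02610.1 (wound-inducible protein 12, 0.33), Glyma04g04600.1 (a mitotic A1-type cyclin, 0.33) and Glyma18g38430.1 (pectate lyase 20-like, 0.34), of which the pectate lyase gene was called (log2 fold change 2.13, edgeR adjusted p = 0.0363). None of the nearest profiles of any of the 7 genes belonged to another of the 7.

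For Glyma06g21120.1 the nearest were Glyma05g34880.1 (PLANT CADMIUM RESISTANCE 2-like, 0.11) and Glyma10g36100.1 (calcium-dependent protein kinase 4-like, 0.12). For Glyma17g05860.1 they were Glyma20g26580.1 (methylthioribose kinase 1-like, 0.05) and Glyma14g04950.1 (abscisic-aldehyde oxidase-like, 0.06), and for Glyma14g37280.1 Glyma19g33150.1 (DNA-3-methyladenine glycosylase-like, 0.06) and Glyma17g36140.1 (BRI1 kinase inhibitor 1-like, 0.08). The flatter APRR1-like profiles were matched by Glyma10g17510.1 (zinc finger AN1 and C2H2 stress-associated protein 16-like, 0.04) and Glyma06g07490.1 (1-deoxy-D-xylulose-5-phosphate synthase, 0.05) for Glyma04g33110.1. For Glyma05g00880.1 they were Glyma13g38800.1 (IQ-DOMAIN 1-like, 0.02) and Glyma06g01400.1 (RER1B-like, 0.03). These likenesses describe 6 libraries, and 0 of those 10 genes were called.

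**Figure D5:**
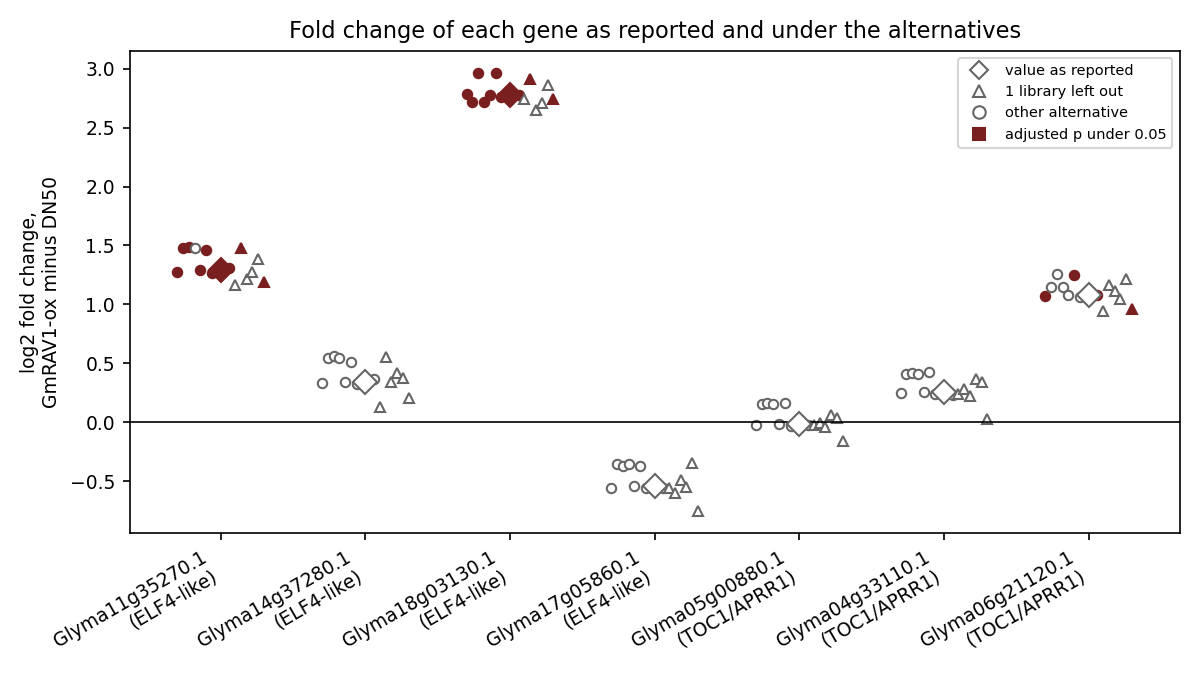
Log2 fold change of each evening clock gene, GmRAV1-ox against DN50, as reported (diamonds) and under 16 alternatives (triangles with 1 library left out, circles otherwise), filled where the adjusted p was under 0.05. Glyma18g03130.1 stays between 2.65 and 2.97 and Glyma11g35270.1 between 1.16 and 1.49, while Glyma05g00880.1 lies on either side of 0.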

How the data were processed

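Each library table, as deposited, gives a coding length, an expected count (an estimated count that need not be whole) and an FPKM value per gene, per the file headers. The FPKM values deposited for the whole series are equal to these. Per the submitters' processing notes, the tools were TopHat and Cufflinks. Their versions, the genome build and the annotation are not given in the labels or file headers. Genes not listed in a library were set to 0.

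Expected counts were rounded and fitted in R 4.3.3 with edgeR 4.0.16 (filterByExpr, TMM, robust 2-sided quasi-likelihood F test, Benjamini-Hochberg adjusted p under 0.05 over all genes tested), and the code was checked on simulated data. Intervals use the log2 fold change, its SE and the t distribution. DESeq2 1.42.0 and limma 3.58.1 on log2(FPKM + 1) were alternatives. Precision is limited by 3 libraries a group, and by depth for the lowest genes. Wilson intervals cover counting error only.

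The 7 genes and the lists were chosen with earlier results of these data known. Named genes are the 7, list genes past the threshold or with the smallest p of their list, and the 2 or 3 nearest profiles (mean FPKM of at least 1, informative description, log2 CPM with a prior count of 2). Copies were to be paired by protein similarity. With no protein sequences used here, they were paired by shared reads instead. RefSeq symbols (Glycine_max_v4.0) were matched by protein accession for 5 of 7.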

Additional observations from a re-analysis of the deposited data

How the results depend on the processing

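The count of 2 evening genes called higher came to 1 by limma on log2(FPKM + 1) with no filter, and lay between 0 and 3 with 1 library left out. It was 3 by DESeq2, with no scaling factors and with the replicate block, and 2 in the other alternatives. Log2 fold changes with 1 library left out ranged from 2.65 to 2.91 for Glyma18g03130.1 and from 1.16 to 1.48 for Glyma11g35270.1, with edgeR adjusted p from 0.00338 to 0.178 and from 0.00761 to 0.253. These genes were called in 12 and 11 of the 16 alternatives. Glyma05g00880.1 (-0.01) turned to 0.16 by limma with either pseudocount or with no filter, 0.17 with no scaling factors, 0.058 without GmRAV1-ox replicate 1 and 0.04 without GmRAV1-ox replicate 2, with a range of -0.16 to 0.058 over the fits without 1 library. The sum of the TOC1 and APRR1-like genes (0.17) turned to -0.0012 without GmRAV1-ox replicate 3 and ranged from -0.0012 to 0.24 over such fits. The differences in log2 ratio kept their sign throughout, at 1.37 to 1.51 for Glyma18g03130.1 to Glyma11g35270.1 and 0.70 to 0.93 for Glyma06g21120.1 to Glyma04g33110.1 with 1 library left out. The cause of these shifts was not tested.

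The labels do not say whether same-numbered libraries are paired. Their deviations correlated at -0.30, 0.40 and 0.30 for numbers 1 to 3, against -0.50 to 0.37 between different numbers. These deviations were centred within groups of 3, so the correlations cannot decide whether there is a pairing. With the replicate block, calls over all genes went from 32 higher and 152 lower to 682 and 939, Glyma06g21120.1 was also called (edgeR adjusted p = 0.0320), as was the ELF4-like sum (0.0371), and the ratio differences of 1.42 and 0.84 had an exact sign-flip p of 0.25, the smallest that 3 pairs allow. DESeq2 called 760 higher and 1004 lower, and limma on log2(FPKM + 1) 43 and 90. With no scaling factors 84 were higher and 149 lower. Counts of 5.73 to 8.07 for Glyma18g03130.1 in DN50 limit the precision of its fold.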
